A study of Beta vulgaris with 12 samples.

Results

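The roots of sugar beet seedlings grown without salt were compared between day 7 and day 1 of the experiment. The members were chosen by their labels alone, as the 3 libraries of CK_7 and the 3 libraries of CK_1, which are 6 of the 12 libraries in the series. Seedlings of the cultivar KWS0143 were raised in vermiculite and then moved to aerated Hoagland nutrient solution, which was changed at regular intervals. The CK plants received nutrient solution only, whereas the salted plants of the S_1 and S_7 groups, also 3 libraries each, received NaCl and Na2SO4, stepped up over days to 300 mM Na+. CK_1 and CK_7 are thus the same cultivar, tissue (fresh roots at the seedling stage) and medium, and differ by the 6 days between harvests. The study's methods call the replicates biological and speak of separate containers, but the number of plants behind a library and the hour of harvest are not given in the sources used here. Because each age was harvested once, the age of the root, the day of harvest, the hour of harvest and the time since the solution was changed cannot be told apart in these libraries.

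A young beet root grows in length from a meristem at its tip and in girth from a cambium, and further rings of cambium later build the storage root. Cells that leave a meristem enlarge while expansins and xyloglucan endotransglucosylase/hydrolases (XTH) loosen their walls and other enzymes remodel the pectin, and cells of the xylem and endodermis then lay down lignin and suberin. All of this growth is paid for with sucrose from the leaves. Plant cells short of sugar are known to switch on the breakdown of branched-chain amino acids and fatty acids, with the glyoxylate cycle and asparagine synthetase among the usual signs.

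Expression was measured in FPKM, the number of fragments scaled by transcript length and library depth. The values of a CK library summed to between 385240 and 406650, and between 23698 and 24234 genes per library lay above 0. Pearson correlations of log2(FPKM + 1) between libraries, over genes averaging 1 FPKM or more, were 0.815 to 0.872 within a group and 0.717 to 0.780 between CK_1 and CK_7. CK_1 replicate 2 was the highest of the 3 CK_1 libraries for 1250 of the 1877 genes that increased. It was the lowest for 288 of the 931 genes that decreased, beside 395 for CK_1 replicate 1 and 248 for CK_1 replicate 3. Its correlations with the CK_7 libraries were 0.756 to 0.770, beside 0.755 to 0.780 for CK_1 replicate 1. Of 45 root markers (Casparian strip proteins, SHORT-ROOT and SCARECROW, root transporters and channels), 43 were above 0 in at least 1 CK library, and their summed level was 249, 410.4 and 216 FPKM in the CK_1 libraries and 300.2, 364 and 389 FPKM in the CK_7 libraries, so that the groups overlapped. The median log2 fold change of genes averaging 1 FPKM or more was 0.16, and dividing each library by its median ratio to the others (median ratio scaling) shifted it by 0.156. Log2 fold changes of genes averaging 1 FPKM or more are therefore to be read against 0.16. Medians over whole lists, which also hold lower genes, are to be read against the 0.05 of all genes tested. As the tissue is a mixture of cell types, fewer cells of a type and less RNA per cell cannot be told apart.

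Of 27402 genes tested, 2808 were called as differentially expressed genes (DEGs) between CK_7 and CK_1 which is 10.2%. A DEG had an unadjusted limma P under 0.05 and at least a log2 fold change of 1 in either direction on the log2(FPKM + 1) scale, which understates the change of low genes. There were 1877 increases (6.85%) and 931 decreases (3.40%). After median ratio scaling the split was 1416 increases (5.17%) and 1167 decreases (4.26%), so that increases made up 54.8% of the DEGs in place of 66.8%. A Benjamini-Hochberg adjusted p under 0.05 in limma together with the same fold change was reached by 1544 genes (5.63%), 1064 of them increases (3.88%) and 480 decreases (1.75%). That number depends on single libraries, since it was 2414 without CK_1 replicate 2, 669 without CK_1 replicate 3, 599 without CK_7 replicate 1, 501 without CK_1 replicate 1, 372 without CK_7 replicate 3 and 337 without CK_7 replicate 2. It was 22 with a linear model written after the Ballgown package. That model adds a term for the summed level of each library, and it does not share the spread between genes as limma does. The CK_1 and CK_7 values did not overlap for 32.6% of all genes tested and for 2732 of the 2808 DEGs, and 2540 of the DEGs (90.5%) were above 0 in all 6 libraries. A description of function was attached to 1764 DEGs. Below, "increased" and "decreased" mean a DEG by these criteria, and the adjusted p is given beside the genes shown. Most genes shown were chosen for no overlap between days, so their separation follows from that choice.

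The 10 largest increases were mostly those of secreted and lipid-related proteins with low values on day 1. LOC104890057 encodes GAST1, a small secreted protein of the gibberellin-regulated family, and read 0.559, 4.64 and 1.01 FPKM in the CK_1 libraries and 66.3, 251 and 84.5 FPKM in the CK_7 libraries (log2 fold change 5.44, SE 0.69, limma adjusted p = 0.0164). Peroxidase 20 (LOC104892966), a secreted class III peroxidase, read 0.413, 1.47 and 0.479 FPKM on day 1 and 35.3, 33.6 and 43.7 FPKM on day 7 (log2 fold change 4.47, SE 0.27, limma adjusted p = 0.00326), and peroxidase 11 (LOC104896291), of the same class, read 1.37, 2.78 and 2.41 FPKM and 58.9, 61.4 and 82.2 FPKM (log2 fold change 4.44, SE 0.24, limma adjusted p = 0.00264). The lowest day 7 library thus stood more than 10 times above the highest day 1 library for each of these genes. A pair of early nodulin-93 genes, named after a nodule protein of legumes, rose in parallel. LOC104902084 read 0.14, 0.137 and 0.769 FPKM on day 1 and 34.7, 51.02 and 87.6 FPKM on day 7, and LOC104902086 read 0.0656, 0.17 and 0.205 FPKM and 27.5, 30.9 and 50.4 FPKM, with log2 fold changes of 5.38 and 4.97 (limma adjusted p = 0.0055 and 0.00264). Reads of such like copies may be shared between the entries. GDSL esterases or lipases, a family that includes enzymes of cutin and suberin, gave 2 of the 10, LOC104894041 with 1.45, 2.25 and 2.05 FPKM on day 1 and 42.1, 58.9 and 93.8 FPKM on day 7, and LOC104895639 with 1.04, 2.22 and 2.38 FPKM and 56.1, 36.9 and 68.8 FPKM. Their log2 fold changes were 4.43 (limma adjusted p = 0.00541) and 4.24 (limma adjusted p = 0.00579), with no overlap between days. The remaining 3 were the non-specific lipid-transfer protein LOC104904284 (log2 fold change 5.07, limma adjusted p = 0.00866), the probable inactive purple acid phosphatase 29 LOC104901834 (4.42, limma adjusted p = 0.0209) and the organ-specific protein S2 LOC104904380 (4.39). The last of these was the most abundant, at 148, 20.5 and 45.1 FPKM on day 1 and 1328, 1127 and 910.3 FPKM on day 7 (limma adjusted p = 0.0265).

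**Figure D1:**
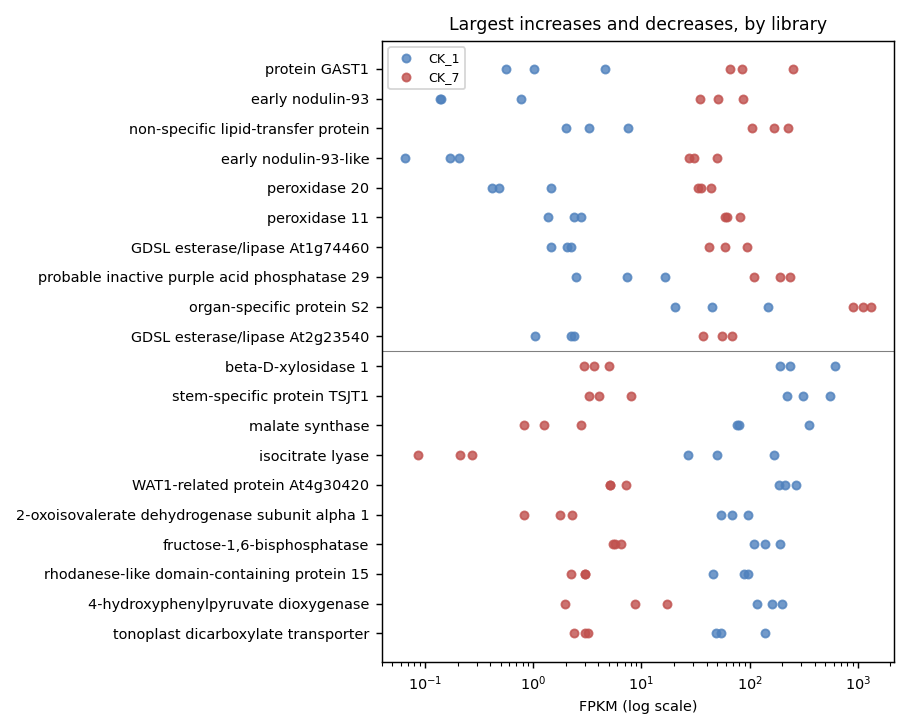
FPKM on a log scale of the 10 largest increases (top) and the 10 largest decreases (bottom), with 1 point per library, blue for the 3 CK_1 and red for the 3 CK_7 libraries. The groups are separate for all 20 genes, as their choice required. GAST1 is at the top and the tonoplast dicarboxylate transporter at the bottom, which fell from 48.6, 138 and 54.1 FPKM to 2.38, 3.005 and 3.18 FPKM.

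Among the 10 largest decreases were several enzymes of the breakdown of fats and amino acids, well expressed on day 1 and at low values on day 7. Isocitrate lyase (LOC104901757) and malate synthase (LOC104893512) are the enzymes particular to the glyoxylate cycle, which turns the acetyl units of fatty acids into precursors of sugar. Isocitrate lyase read 49.6, 26.8 and 169 FPKM on day 1 and 0.209, 0.274 and 0.086 FPKM on day 7 (log2 fold change -5.71, SE 0.66, limma adjusted p = 0.0137). Malate synthase read 76.2, 79.4 and 358 FPKM and 2.74, 1.27 and 0.827 FPKM (log2 fold change -5.71, SE 0.67, limma adjusted p = 0.014). In both, the third CK_1 library was the highest, at more than 2 times either of the others, and no day 7 library came near day 1. The alpha subunit of 2-oxoisovalerate dehydrogenase (LOC104894712), which commits branched-chain amino acids to breakdown in the mitochondrion, fell from 54.4, 68.4 and 96.1 FPKM to 0.816, 1.77 and 2.27 FPKM (log2 fold change -4.82, SE 0.31, limma adjusted p = 0.00397). The 4-hydroxyphenylpyruvate dioxygenase LOC104902718, of tyrosine breakdown, fell from 117, 163 and 198 FPKM to 8.76, 1.95 and 17.4 FPKM (limma adjusted p = 0.0254), and the cytosolic fructose-1,6-bisphosphatase LOC104895737, of gluconeogenesis and sucrose synthesis, from 139.7, 109.7 and 193 FPKM to 5.68, 5.48 and 6.52 FPKM (limma adjusted p = 0.00246). Each of these genes kept the days apart by a wide gap. The largest of these 10 decreases was that of beta-D-xylosidase 1 (LOC104888401), a wall-degrading glycosidase, from 235, 190.5 and 618 FPKM to 2.94, 5.01 and 3.62 FPKM (log2 fold change -5.99, SE 0.47, limma adjusted p = 0.00615). The stem-specific protein TSJT1 (LOC104900731) fell by a similar factor, from 221, 311 and 559 FPKM to 8.097, 4.06 and 3.31 FPKM (log2 fold change -5.86, limma adjusted p = 0.00582). The list closed with a WAT1-related transporter (LOC104901778, log2 fold change -5.04), the rhodanese-like domain-containing protein 15 (LOC104897780, -4.32), whose counterpart in Arabidopsis is known from darkness and senescence, and the tonoplast dicarboxylate transporter (LOC104900882, -4.24), which moves malate into the vacuole. The table holds another entry under the same locus name for malate synthase, the fructose-1,6-bisphosphatase and the rhodanese-like protein, so their values cover part of the locus.

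The gene lists below were described by their share of DEGs, beside that of all genes tested, and their median. Of the 16996 genes averaging 1 FPKM or more, 10.5% increased and 5.15% decreased, so that 15.7% were called. Low genes are called less often, so lists made mostly of expressed genes are to be read against these higher shares. The plot by gene list orders them from the largest net share of increases to the largest net share of decreases.

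**Figure D2:**
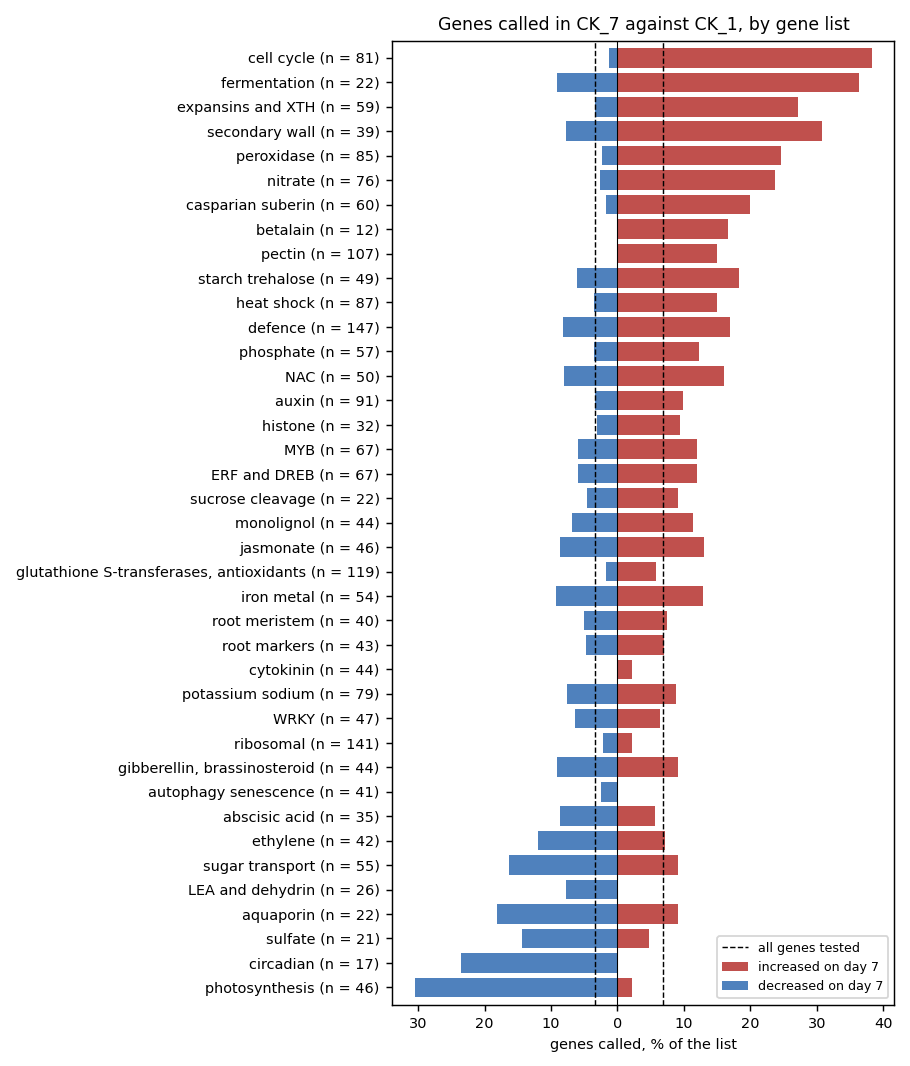
Share of the tested members of each of 39 gene lists that increased (red, to the right) or decreased (blue, to the left) in CK_7 against CK_1, in % of the list, with the number tested in parentheses. Dashed lines mark all genes tested, at 6.85% and 3.40%. The cell cycle list stands at the top with 38.3% increased, and photosynthesis at the bottom with 30.4% decreased.

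Cell division genes had the largest net share of increases among the 39 lists. Of 81 tested members, 31 increased and 1 decreased (38.3% and 1.23%), with a median log2 fold change of 0.73 beside 0.05 for all genes tested. After median ratio scaling 29 and 1 were called, and their median was 0.61. With an adjusted p under 0.05, 18 members increased and 1 decreased. Their summed level was 395, 542 and 341 FPKM in the CK_1 libraries and 651, 715 and 736 FPKM in the CK_7 libraries. Among the members with the largest changes were regulators of mitosis. Cell division control protein 2 homolog D (LOC104899317), a plant cyclin-dependent kinase, read 1.58, 4.85 and 0.961 FPKM on day 1 and 16.7, 12.3 and 23.6 FPKM on day 7 (log2 fold change 2.54, SE 0.47, limma adjusted p = 0.035). The kinase Aurora-2 (LOC104885944), which acts on chromosomes and the spindle, read 1.21, 3.904 and 0.726 FPKM and 10.7, 15.4 and 17.3 FPKM (log2 fold change 2.52, SE 0.44, limma adjusted p = 0.0311). A 65-kDa microtubule-associated protein (LOC104897619), a bundler of microtubules in the phragmoplast, read 0.209, 1.24 and 0.11 FPKM and 4.06, 5.44 and 5.93 FPKM (log2 fold change 2.08, SE 0.35, limma adjusted p = 0.0276). In all 3 the second CK_1 library was the highest of day 1 and still below every day 7 library. This held beyond these genes, since CK_1 replicate 2 was the highest of the CK_1 libraries for 29 of the 31 increased members and CK_1 replicate 3 the lowest for 27. The mitotic cyclin S13-7 (LOC104904874) followed the same order, with 0.765, 3.69 and 0.339 FPKM and 7.096, 8.13 and 8.93 FPKM, and did not pass the adjustment (limma adjusted p = 0.0669). The myb-related protein 3R-1 (LOC104884912), of the family that activates mitotic genes in plants, rose as well, from 1.42, 2.89 and 0.763 FPKM to 6.403, 7.35 and 7.34 FPKM (log2 fold change 1.65, SE 0.33, limma adjusted p = 0.0414). When any 1 library was left out, between 28 and 35 members were called as increases.

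A few patterning genes were called, in both directions, and regulators of the cambium and of organ growth were among the increases. WUSCHEL-related homeobox 4 (LOC104902590), which in Arabidopsis keeps cambium cells dividing, read 4.105, 11.1 and 3.19 FPKM on day 1 and 19.6, 35.5 and 25.1 FPKM on day 7 (log2 fold change 2.08, SE 0.45, limma adjusted p = 0.0506). AINTEGUMENTA (ANT, LOC104901696), an AP2-type factor of organ growth that also marks the Arabidopsis cambium, read 0.22, 1.23 and 0.278 FPKM and 3.58, 4.59 and 4.204 FPKM (log2 fold change 1.75, SE 0.31, limma adjusted p = 0.0312). Both were separated between days, ANT past the adjustment and the homeobox gene just short of it. LOB domain-containing protein 4 (LOC104884175) increased too, by 1.62 on the log2 scale (limma adjusted p = 0.0279), as did the CLE peptide gene LOC104900141 (2.64, limma adjusted p = 0.053). In the other direction PLETHORA 2 (PLT2, LOC104889956), which maintains the meristem of the root tip in Arabidopsis, read 6.73, 8.08 and 3.97 FPKM on day 1 and 1.33, 2.21 and 1.65 FPKM on day 7 (log2 fold change -1.38, limma adjusted p = 0.051). The list of root patterning and meristem regulators, which does not hold all of the genes above, stood near the background. It had 3 increased and 2 decreased of 40 (7.5% and 5%) and a median log2 fold change of 0.00.

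**Figure D3:**
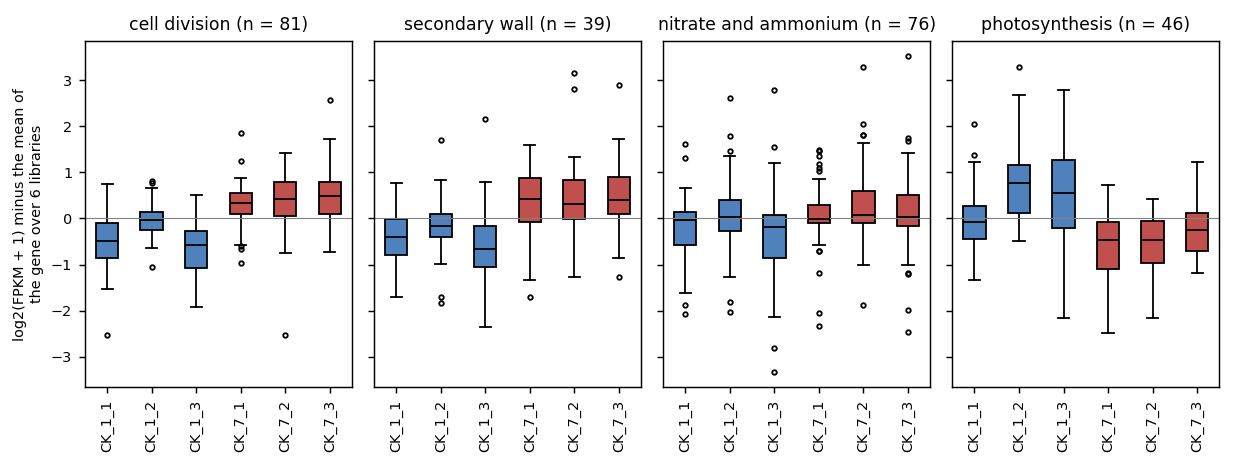
log2(FPKM + 1) of each gene minus its mean over the 6 CK libraries, as boxes (median, quartiles, whiskers to 1.5 times the interquartile range, points beyond) per library for 4 gene lists, blue for CK_1 and red for CK_7, with the number of genes in each title. The summed cell division level is at most 542 FPKM on day 1, in CK_1_2, and at least 651 FPKM on day 7, and the boxes for photosynthesis move the other way.

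The secondary wall list (cellulose synthases of the secondary wall, xylan enzymes and laccases) had 12 increases in a small list. Of 39 tested members, 12 increased and 3 decreased (30.8% and 7.69%), the median log2 fold change was 0.79, and the same 12 and 3 were counted after scaling. Laccases, copper enzymes that couple monolignols into lignin, led the increases. Laccase-4 (LOC104900001) read 2.12, 6.77 and 0.705 FPKM on day 1 and 24.05, 18.3 and 19.9 FPKM on day 7 (log2 fold change 2.65, SE 0.55, limma adjusted p = 0.046), and laccase-12 (LOC104905953) read 10.01, 5.82 and 11.4 FPKM and 46.9, 55.3 and 78.5 FPKM (log2 fold change 2.62, SE 0.30, limma adjusted p = 0.0137). Laccase-11 (LOC104895043) and laccase-3 (LOC104900211) rose by 2.45 and 2.32 on the log2 scale (limma adjusted p = 0.0452 and 0.0145). By the way they were chosen, no day 7 library of these 4 genes lay within the day 1 range. The xylan synthase gene IRX9 (LOC104884838), listed at 0 in 1 day 1 library, read 0.0816, 0.215 and 0 FPKM and 1.55, 2.02 and 0.764 FPKM.

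Class III peroxidases oxidise phenolics in the wall. Of 85 tested members, 21 increased and 2 decreased (24.7% and 2.35%), and 18 and 2 after scaling. Their median log2 fold change was 0.09, beside 0.05 for all genes tested. For the 57 members averaging 1 FPKM or more it was 0.38, beside 0.16 for all such genes. Apart from peroxidases 20 and 11, peroxidase 72 (LOC104895081) rose from 7.02, 9.52 and 4.04 FPKM to 80.97, 89.1 and 119.7 FPKM (log2 fold change 3.68, SE 0.31, limma adjusted p = 0.00709), and peroxidase 4 (LOC104908318) from 2.81, 13.8 and 10.3 FPKM to 136, 44.6 and 165 FPKM (log2 fold change 3.55, SE 0.70, limma adjusted p = 0.0406). The days did not overlap in either gene. CK_1 replicate 2 was again the highest of day 1, for 20 of the 21 increased members. Monolignol enzymes as a list were closer to the background, with 5 increased and 3 decreased of 44 (11.4% and 6.82%), and 4 and 4 after scaling. The caffeic acid 3-O-methyltransferase LOC104888149, a methylating enzyme of the lignin pathway, read 11.3, 25.9 and 18.5 FPKM on day 1 and 106, 115 and 107 FPKM on day 7 (log2 fold change 2.57, SE 0.29, limma adjusted p = 0.0137). Cinnamoyl-CoA reductase 1 (LOC104904880), the entry step to monolignols, was abundant on both days, at 120.4, 212 and 129 FPKM and 459, 511 and 404 FPKM (log2 fold change 1.61, SE 0.29, limma adjusted p = 0.034).

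Casparian strips and suberin seal the endodermis of the root. Of 60 tested members, 12 increased and 1 decreased (20% and 1.67%), with 11 and 3 after scaling and a median log2 fold change of 0.07. Decreases numbered 4 without CK_7 replicate 3. Fatty acyl-CoA reductases make the alcohols of suberin. LOC104901603 of this family read 4.29, 4.62 and 3.02 FPKM on day 1 and 46.1, 50.04 and 60.98 FPKM on day 7 (log2 fold change 3.43, SE 0.19, limma adjusted p = 0.00271), and LOC104900337 read 1.25, 1.25 and 1.14 FPKM and 17.8, 15.3 and 19.6 FPKM (log2 fold change 3.07, SE 0.17, limma adjusted p = 0.00264). Cytochrome P450 86B1 (LOC104902574), which hydroxylates the very long acids of suberin in Arabidopsis, rose from 0.548, 0.679 and 0.558 FPKM to 8.85, 8.28 and 17.6 FPKM (log2 fold change 2.90, SE 0.32, limma adjusted p = 0.0132). The replicates of these 3 genes were tight on day 1 and the groups lay far apart. The feruloyl transferase LOC104895231, which attaches ferulate to suberin monomers, varied more, with 3.15, 9.42 and 2.11 FPKM and 38.5, 11.3 and 58.3 FPKM (limma adjusted p = 0.0915).

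Among wall-loosening genes, 16 of 59 expansins and XTHs increased and 2 decreased (27.1% and 3.39%), and 15 and 1 did so after scaling, with a median log2 fold change of 0.52. With an adjusted p under 0.05 there were 6 increases. Expansin-A4 (LOC104904256) read 0.944, 1.97 and 1.74 FPKM on day 1 and 19.6, 13.9 and 9.27 FPKM on day 7 (log2 fold change 2.55, SE 0.32, limma adjusted p = 0.0164). Expansin-A10 (LOC104894031) read 0.455, 2.98 and 0.354 FPKM and 7.26, 17.9 and 8.63 FPKM (log2 fold change 2.53, SE 0.55, limma adjusted p = 0.0498). The XTH genes LOC104889736 and LOC104889734, which lie close together with 1 gene between them in the RefSeq annotation, rose by 3.06 and 2.58 (limma adjusted p = 0.0214 and 0.0385). Pectin enzymes gave 16 increases and 0 decreases of 107 (15% and 0%), and 13 and 1 after scaling. Pectate lyase 18 (LOC104908556) read 0.195, 2.46 and 0.51 FPKM on day 1 and 10.999, 24.9 and 21.5 FPKM on day 7 (log2 fold change 3.38, SE 0.50, limma adjusted p = 0.0224), and the probable polygalacturonase LOC104888375 read 1.47, 8.501 and 1.201 FPKM and 33.98, 77.1 and 28.7 FPKM (log2 fold change 3.54, SE 0.68, limma adjusted p = 0.0377). Pectate lyase 5 (LOC104897228) was listed at 0 in all CK_1 libraries and at 1.18, 2.25 and 1.76 FPKM in CK_7.

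The KEGG pathway with the largest share of DEGs was the degradation of valine, leucine and isoleucine. It had 6 increased and 14 decreased among 44 genes tested, where 11.0% of all genes with a pathway increased and 4.48% decreased. Its median log2 fold change was -0.46, and after scaling 4 increased and 18 decreased. Glyoxylate and dicarboxylate metabolism, with 9 increased and 12 decreased among 55, also held more decreases than increases. Fatty acid degradation had 5 increased and 7 decreased among 40, with 4 and 10 after scaling and 5 and 4 with an adjusted p under 0.05, so that its direction was not firm. Fatty acid biosynthesis had 10 increased and 1 decreased among 31. Biosynthesis of unsaturated fatty acids had 8 increased and 1 decreased among 22. These pathways for making fatty acids had more increases than decreases after scaling (8 and 1, and 6 and 2). Glycolysis and gluconeogenesis had 27 increased and 11 decreased among 102, with 17 and 12 after scaling. Carbon metabolism as a whole had 34 increased and 25 decreased among 204, which turned to 20 and 28 after scaling and 21 and 23 with an adjusted p under 0.05. Amino sugar and nucleotide sugar metabolism, which supplies the sugars of the wall, had 30 increased and 8 decreased among 99, and phenylpropanoid biosynthesis, the source of lignin, had 33 increased and 8 decreased among 169. After scaling these were 22 and 9 and, for phenylpropanoids, 28 and 9. DNA replication had 18 increased and 0 decreased among 60, and 12 and 0 after scaling. Pathways of basic upkeep had smaller shares, with 10 increased and 9 decreased among 224 for the ribosome, 8 increased and 4 decreased among 184 for the spliceosome, 1 increased and 0 decreased among 48 for the proteasome and 3 increased and 1 decreased among 84 for oxidative phosphorylation. After scaling the ribosome had 2 and 11, the spliceosome 4 and 9 and the proteasome 0 and 3.

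**Figure D4:**
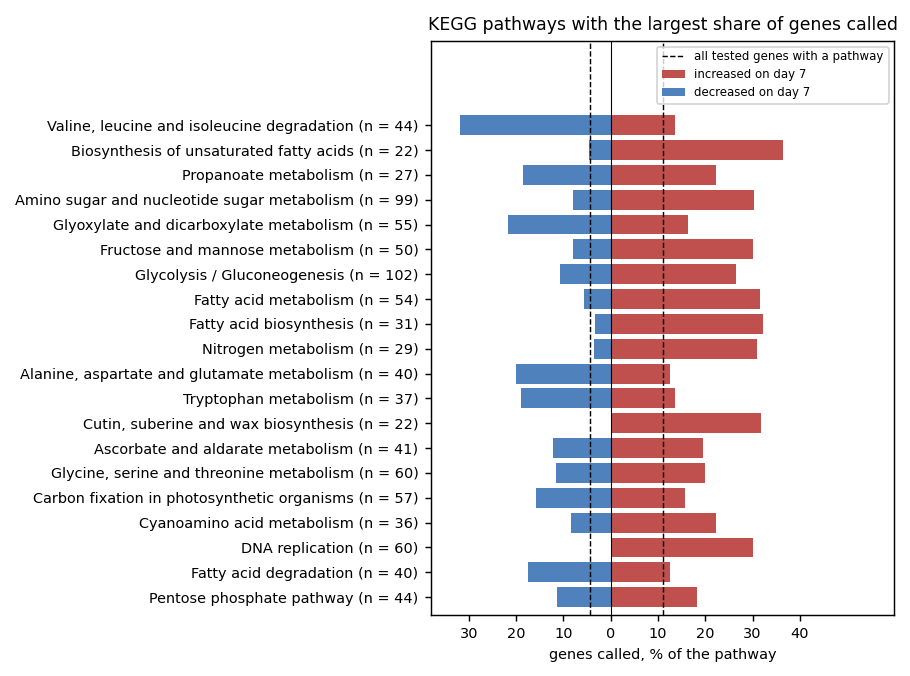
The 20 KEGG pathways, of 95 with at least 20 genes tested, with the largest share of genes called in CK_7 against CK_1. Red bars to the right give the share that increased and blue bars to the left the share that decreased, in % of the pathway, and dashed lines the shares over all genes with a pathway. Degradation of valine, leucine and isoleucine leads with 45.5% called, and DNA replication shows increases only.

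GO terms of the microtubule and the wall held the largest shares of DEGs, whereas the term cell division itself had 0 increased and 0 decreased among 21. Of 266 terms with at least 20 genes tested, microtubule-based movement and microtubule motor activity had the largest share, each with 17 increased and 1 decreased among 36, where 9.90% of all genes with a term increased and 4.0% decreased. Plant-type cell wall followed with 13 increased and 3 decreased among 34, and DNA replication had 21 increased and 0 decreased among 53, with 15 and 0 after scaling. Photosystem I was the leading term with mostly decreases, at 1 increased and 9 decreased among 26. Protein kinase activity had 41 increased and 13 decreased among 466, and 30 and 20 after scaling. Regulation of transcription had 41 increased and 21 decreased among 554, and 30 and 25 after scaling.

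Genes of sugar handling were called in both directions. Class II trehalose-phosphate synthases, of which some rise in sugar-starved Arabidopsis, gave all 3 decreases of the starch and trehalose list. LOC104894247 fell from 114, 218 and 218 FPKM to 28.5, 39.7 and 24.2 FPKM (log2 fold change -2.50, SE 0.33, limma adjusted p = 0.0176), and LOC104897415 and LOC104901797 fell, with log2 fold changes of -1.92 and -1.85 (limma adjusted p = 0.0381 and 0.0226). The list also held 9 increases among 49 (18.4%), numbering 4 without CK_1 replicate 3 and 5 after scaling. Decreases numbered 5 without CK_1 replicate 2. The summed level of the list went from 1102, 1099 and 1275 FPKM in the CK_1 libraries to 637, 589 and 682 FPKM in the CK_7 libraries. Of 55 sugar transporters, 5 increased and 9 decreased (9.09% and 16.4%), and 4 and 11 after scaling. With an adjusted p under 0.05 the direction turned, to 4 increases and 3 decreases. The ERD6-like transporter LOC104899261, of a family with members that export sugar from the vacuole, fell from 5.02, 6.46 and 3.31 FPKM to 0.0834, 0.058 and 0.21 FPKM (log2 fold change -2.37, SE 0.27, limma adjusted p = 0.0134). Monosaccharide-sensing protein 2 (LOC104894149), which in Arabidopsis loads sugar into the vacuole, did the opposite, from 0.413, 2.41 and 0.462 FPKM to 16.3, 20.2 and 16.5 FPKM (log2 fold change 3.28, SE 0.39, limma adjusted p = 0.0142). The sucrose-phosphate synthase LOC104909043 rose from 1.55, 2.47 and 1.49 FPKM to 7.46, 7.82 and 7.33 FPKM (log2 fold change 1.61, SE 0.21, limma adjusted p = 0.0176), and the fructan 6-exohydrolase LOC104899809, of the invertase family, fell from 173, 154 and 233 FPKM to 55.2, 54.8 and 55.1 FPKM (log2 fold change -1.72, SE 0.19, limma adjusted p = 0.0134). The acid invertase BIN44 was at 0, 0.0321 and 0 FPKM on day 1, with 2 libraries listed at 0, and at 2.09, 1.65 and 3.79 FPKM on day 7.

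Fermentation and low oxygen genes were called upward more often than downward. Of 22 tested members, 8 increased and 2 decreased (36.4% and 9.09%), with 6 and 1 past the adjustment, and 12 were not called. The median log2 fold change was 0.21. For the 21 members averaging 1 FPKM or more it was 0.23, beside 0.16 for all such genes. Their summed level was 558, 619 and 693 FPKM on day 1 and 1172, 1336 and 1462 FPKM on day 7. Much of that rise lay in alcohol dehydrogenase 3. Alcohol dehydrogenase 3 (LOC104895143), which regenerates NAD+ in fermentation, rose from 25.4, 24.7 and 78.2 FPKM to 449, 543 and 592 FPKM (log2 fold change 3.80, SE 0.48, limma adjusted p = 0.0161). Pyruvate decarboxylase 2 (LOC104892526), the step before it, rose from 8.83, 7.51 and 11.5 FPKM to 41.8, 70.8 and 59.6 FPKM (log2 fold change 2.49, SE 0.25, limma adjusted p = 0.0106), and the non-symbiotic hemoglobin LOC104904413, a scavenger of nitric oxide, from 3.705, 3.57 and 10.9 FPKM to 34.5, 44.8 and 58.4 FPKM (log2 fold change 2.85, SE 0.43, limma adjusted p = 0.0226). The days stood apart in each. A further alcohol dehydrogenase, LOC104891196, fell from 85.2, 120.3 and 92.3 FPKM to 8.502, 8.75 and 8.63 FPKM (log2 fold change -3.37, SE 0.16, limma adjusted p = 0.002), so that alcohol dehydrogenases changed in both directions.

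Photosynthesis genes, which mark green tissue, were present at low levels and had the largest net share of decreases. Of 46 tested members, 1 increased and 14 decreased (2.17% and 30.4%), with a median log2 fold change of -0.84 and 0 and 14 after scaling. The number of decreases was 22 without CK_1 replicate 1 and 9 without CK_1 replicate 2. Their summed level was 113, 270.05 and 235 FPKM in the CK_1 libraries and 47.03, 48.8 and 70.9 FPKM in the CK_7 libraries, and 1 of the 47 listed genes was at 0 in all 6. Subunit IV of photosystem I (LOC104899345) read 7.8999, 6.24 and 12.7 FPKM on day 1 and 0.803, 0.635 and 1.13 FPKM on day 7 (log2 fold change -2.38, SE 0.30, limma adjusted p = 0.0164). The Rubisco small subunit gene LOC104906081 read 4.14, 5.01 and 5.47 FPKM and 0.111, 0.456 and 0.357 FPKM (log2 fold change -2.17, SE 0.22, limma adjusted p = 0.0115). It lies in a cluster of copies, and reads may be shared among them. The part of green tissue in these values was not tested.

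The circadian clock list held 0 increases and 4 decreases of 17 (0% and 23.5%), the same after scaling. Its median log2 fold change was -0.13, and 7 members were higher on day 7 without being called. With an adjusted p under 0.05 there were 0 increases and 2 decreases. Without CK_1 replicate 2 there were 2 increases and 3 decreases. The GO term circadian rhythm had 1 increased and 1 decreased among 23. LHY (LOC104901408), a clock gene that peaks near dawn in Arabidopsis, read 48.2, 43.7 and 29.3 FPKM on day 1 and 3.69, 4.67 and 7.54 FPKM on day 7 (log2 fold change -2.73, SE 0.30, limma adjusted p = 0.0129). REVEILLE 8 (LOC104908893), another morning factor, read 16.1, 13.3 and 23.7 FPKM and 6.76, 7.15 and 5.505 FPKM (log2 fold change -1.29, SE 0.24, limma adjusted p = 0.0348). REVEILLE 2 (LOC104891267) and the pseudo-response regulator APRR9 (LOC104902773) decreased too, with log2 fold changes of -1.34 and -1.25 (limma adjusted p = 0.086 and 0.0581). All 4 are known as genes of the first part of the day in Arabidopsis, and the groups did not overlap. The hour at which each group was harvested cannot be told apart from age here, for these genes or for any other that follows the day.

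The nitrate and ammonium list covers uptake and assimilation. Of 76 tested members, 18 increased and 2 decreased (23.7% and 2.63%), the median log2 fold change was 0.06 and 15 and 2 were called after scaling. Without CK_1 replicate 1, 12 increased, and 9 did so with an adjusted p under 0.05. The high-affinity nitrate transporters NRT2.1 and NRT2.5 work when nitrate is scarce. NRT2.1 (LOC104899765) read 0.0398, 0.0666 and 0.105 FPKM on day 1 and 1.68, 41.8 and 48.8 FPKM on day 7, with CK_7 replicate 1 far below the other two (log2 fold change 4.06, SE 1.16, limma adjusted p = 0.0937). It has an adjacent copy in the RefSeq annotation, as do the NRT2.5-like genes, so reads may be shared between copies. The NRT2.5-like neighbours LOC104908398 and LOC104908396 read 0.0274, 0 and 0 FPKM and 0, 0.717 and 1e-06 FPKM on day 1 and 3.31, 4.79 and 6.69 FPKM and 2.82, 10.01 and 4.16 FPKM on day 7. The dual-affinity transporter NPF6.3 (LOC104892039) spread widely on day 1, at 11.4, 63.8 and 3.58 FPKM, and was at 124.6, 128 and 152 FPKM on day 7 (limma adjusted p = 0.105). In contrast, asparagine synthetase 1 (LOC104899932), known to be induced when sugar is short, fell from 19.4, 22.000 and 44.5 FPKM to 0.321, 0.795 and 0.664 FPKM (log2 fold change -4.13, SE 0.35, limma adjusted p = 0.00712).

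Genes of other mineral nutrients were called in both directions. The phosphate list had 7 increased and 2 decreased of 57 (12.3% and 3.51%), with 12 and 4 without CK_1 replicate 2. Purple acid phosphatases, secreted enzymes that free phosphate, were among its increases, such as LOC104888997 from 1.597, 2.87 and 2.52 FPKM to 14.6, 10.5 and 13.8 FPKM (log2 fold change 2.07, SE 0.23, limma adjusted p = 0.0134). SPX domain-containing protein 1 (LOC104908637), a phosphate sensor induced in starvation, fell from 41.2, 62.9 and 46.7 FPKM to 12.97, 16.2 and 10.5 FPKM (log2 fold change -1.85, SE 0.23, limma adjusted p = 0.0154). The groups did not overlap in either gene. Of 54 genes of iron, zinc and copper, 7 increased and 5 decreased (13% and 9.26%). Without CK_1 replicate 2 there were 11 increases and 2 decreases, and without CK_7 replicate 3 also 2 decreases. Zinc transporter 11 (LOC104891837) rose from 1.09, 2.08 and 2.605 FPKM to 19.7, 23.99 and 26.7 FPKM (log2 fold change 3.09, SE 0.25, limma adjusted p = 0.00662) and the metal transporter Nramp5 (LOC104893096), which takes up manganese in rice, from 26.4, 43.1 and 23.1 FPKM to 126, 113 and 91.8 FPKM (log2 fold change 1.84, SE 0.27, limma adjusted p = 0.0215). Of 21 sulfate genes 1 increased and 3 decreased. These were the root uptake transporter 1.2 (LOC104884641), up by 1.49 (limma adjusted p = 0.0145), and sulfate transporter 3.4 (LOC104902173), the low-sulfur response gene LOC104888103 and the cysteine synthase LOC104890969, with log2 fold changes of -2.22, -1.93 and -1.14 (limma adjusted p = 0.021, 0.04 and 0.0206).

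Aquaporins were among the most highly expressed genes with decreases. Of 22 tested members, 2 increased and 4 decreased (9.09% and 18.2%), and 1 decrease passed the adjustment. Without CK_1 replicate 2 there were 5 increases and without CK_7 replicate 1 4. The TIP-type aquaporin LOC104892761, a water channel of the vacuole, read 1157, 2742 and 1122 FPKM on day 1 and 106, 243 and 195 FPKM on day 7 (log2 fold change -3.15, SE 0.54, limma adjusted p = 0.029). PIP2-1 (LOC104903241), a channel of the plasma membrane, read 568, 1199.7 and 455 FPKM and 192, 190.2 and 203 FPKM (log2 fold change -1.79, limma adjusted p = 0.0593). In both, CK_1 replicate 2 held the highest value, as it did for the summed aquaporin level of 3233, 7769 and 2578 FPKM on day 1, against 1353, 1772 and 1569.8 FPKM on day 7. Of 79 genes of potassium, sodium and chloride transport, 7 increased and 6 decreased (8.86% and 7.59%). A pair of HKT transporters, of a family that retrieves sodium from the xylem in rice and Arabidopsis, increased. These were HKT6 (LOC104902377) from 0.11, 0.316 and 0.137 FPKM to 6.26, 8.81 and 6.28 FPKM (log2 fold change 2.76, SE 0.23, limma adjusted p = 0.00709) and the HKT8-like LOC104903830 from 3.596, 2.01 and 4.495 FPKM to 23.7, 14.3 and 18.9 FPKM (log2 fold change 2.21, SE 0.30, limma adjusted p = 0.0186). The anion channel SLAH1 (LOC104902537) fell from 2.11, 6.02 and 4.91 FPKM to 0.384, 0.0901 and 0.42 FPKM (log2 fold change -1.97, SE 0.36, limma adjusted p = 0.0346).

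Hormone lists other than that of cytokinin were called in both directions. The counts of increases and decreases were 9 and 3 of 91 for auxin (9.89% and 3.3%), 1 and 0 of 44 for cytokinin (2.27% and 0%), 2 and 3 of 35 for abscisic acid (5.71% and 8.57%), 3 and 5 of 42 for ethylene (7.14% and 11.9%), 6 and 4 of 46 for jasmonate (13% and 8.7%), and 4 and 4 of 44 for gibberellin and brassinosteroid (9.09% and 9.09%). After scaling auxin had 7 and 3, and with an adjusted p under 0.05 jasmonate had 1 and 0. Leaving out 1 library moved several of these counts. Without CK_1 replicate 2 there were 6 decreases for abscisic acid, 7 decreases for jasmonate, 5 increases for ethylene, and 2 increases and 3 decreases for cytokinin, and without CK_1 replicate 1 there were 6 decreases for auxin. Jasmonate decreases numbered 2 without any 1 of the CK_7 libraries, and gibberellin and brassinosteroid decreases 2 without CK_1 replicate 3. The gibberellin-regulated protein 6 genes LOC104894050 and LOC104894051, adjacent copies of the GAST1 family, rose by 3.82 and 3.15 on the log2 scale (limma adjusted p = 0.0269 and 0.0226). LOC104894050 read 1.85, 14.4 and 3.57 FPKM on day 1 and 74.1, 100.2 and 73.9 FPKM on day 7. Cytokinin dehydrogenase 1 (LOC104889407), which destroys cytokinin, rose from 0.681, 2.36 and 0.71 FPKM to 5.79, 5.05 and 5.47 FPKM (log2 fold change 1.59, SE 0.33, limma adjusted p = 0.0462). Of the enzymes that make ethylene, the ACC oxidase LOC104900929 fell from 138, 54.8 and 86.1 FPKM to 13.01, 16.2 and 18.04 FPKM (log2 fold change -2.40, SE 0.35, limma adjusted p = 0.0214), whereas ACC oxidase 1 (LOC104884391) rose from 0.609, 0.652 and 1.801 FPKM to 7.07, 7.703 and 15.4 FPKM (log2 fold change 2.42, SE 0.39, limma adjusted p = 0.0256). For abscisic acid, the catabolic 8'-hydroxylase 4 (LOC104889589) rose and the receptor PYL9 (LOC104886203) fell, with log2 fold changes of 1.61 and -1.61 (limma adjusted p = 0.0135 and 0.0272). A jasmonate-induced protein gene, LOC104900577, rose from 0.331, 2.77 and 0.0253 FPKM to 38.1, 15.4 and 43.3 FPKM (log2 fold change 4.14, SE 0.63, limma adjusted p = 0.0226). The increases of the auxin list included an efflux carrier (LOC104900930, log2 fold change 1.68, limma adjusted p = 0.065) and an auxin-induced gene named from root cultures (LOC104884049, 2.09, limma adjusted p = 0.00715).

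Transcription factor families were called in both directions. NAC factors had 8 increased and 4 decreased of 50 (16% and 8%), MYB factors 8 and 4 of 67 (11.9% and 5.97%), ERF and DREB factors 8 and 4 of 67 (11.9% and 5.97%) and WRKY factors 3 and 3 of 47 (6.38% and 6.38%). After scaling the counts were 7 and 4 for NAC, 6 and 7 for MYB, 4 and 4 for ERF and 3 and 3 for WRKY factors. Without CK_1 replicate 1, MYB decreases numbered 7 and ERF decreases 2. NAC72 (LOC104891602), a stress and senescence factor in Arabidopsis, fell from 87.5, 55.02 and 153 FPKM to 11.3, 7.23 and 19.4 FPKM (log2 fold change -2.84, SE 0.48, limma adjusted p = 0.029). CUP-SHAPED COTYLEDON 1 (LOC104886693), a boundary gene of meristems, rose from 2.33, 0.805 and 0.885 FPKM to 6.07, 11.3 and 16.6 FPKM (log2 fold change 2.36, SE 0.43, limma adjusted p = 0.034). ERF115 (LOC104895475), which in Arabidopsis prompts divisions after wounding, read 18.9, 7.24 and 32.7 FPKM on day 1 and 2.69, 0.166 and 2.64 FPKM on day 7 (log2 fold change -2.82, limma adjusted p = 0.0667). The ethylene-responsive transcription factor 3 gene LOC104891730 was listed at 0 in all 3 CK_1 libraries and at 144, 159 and 153 FPKM in CK_7 (limma adjusted p = 6.75e-05). With salt the order was opposite, with 118, 139.9 and 138 FPKM on day 1 and 0 in every S_7 library. It was thus at 0 or above 100 FPKM in every library, with no value between, and the assembly of transcripts behind this entry was not tested. Among all genes, the 356 that were at 0 in some CK library and at 20 FPKM or more in another gave 34 of the 2808 DEGs.

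Stress and defence genes were called in both directions. The GO term defense response had 3 increased and 6 decreased among 82, with 3 and 9 after scaling. The KEGG pathway plant-pathogen interaction had 8 increased and 8 decreased (6.4% and 6.4%), beside 11.0% and 4.48% of all genes with a pathway. Its share called was 12.8%, below the 15.4% of all genes with a pathway. The defence list had 25 increased and 12 decreased of 147 (17% and 8.16%), with 10 and 3 past the adjustment and 21 and 13 after scaling. Decreases numbered 6 without CK_7 replicate 1 and 7 without either CK_1 replicate 3 or CK_7 replicate 2. The allergen Mal d 1-like protein LOC104888645, a member of the pathogenesis-related PR-10 class, fell from 569, 1525 and 1256 FPKM to 154, 122 and 151 FPKM (log2 fold change -2.85, SE 0.44, limma adjusted p = 0.0235), and the glucan endo-1,3-beta-glucosidase LOC104894943, which cuts callose, rose from 0.676, 2.096 and 0.235 FPKM to 8.46, 27.3 and 16.9 FPKM (log2 fold change 3.18, SE 0.53, limma adjusted p = 0.0274). The thaumatin-like P21 gene LOC104892315 read 24.4, 33.5 and 27.2 FPKM on day 1 and was listed at 0 in all CK_7 libraries. Heat shock genes had 13 increases and 3 decreases of 87 (14.9% and 3.45%), and 10 and 3 after scaling. The mitochondrial chaperone HSP90-6 (LOC104883173) rose from 9.14, 11.4 and 6.81 FPKM to 32.8, 36.1 and 31.5 FPKM (log2 fold change 1.79, SE 0.20, limma adjusted p = 0.0132), and the small heat shock protein LOC104902833 from 41.9, 11.2 and 28.4 FPKM to 123, 149 and 106 FPKM (log2 fold change 2.34, SE 0.48, limma adjusted p = 0.0431). Antioxidant genes and glutathione S-transferases lay near the background, at 7 and 2 of 119 (5.88% and 1.68%), with 6 and 6 after scaling and 7 decreases without CK_1 replicate 2. Among them glutaredoxin-C6 (LOC104886615) rose from 0.876, 2.93 and 0.637 FPKM to 22.8, 26.9 and 30.2 FPKM (log2 fold change 3.58, SE 0.37, limma adjusted p = 0.0111) and glutathione S-transferase U8 (LOC104899212) fell from 191, 160.0 and 123 FPKM to 33.3, 13.5 and 17.5 FPKM (log2 fold change -2.90, SE 0.36, limma adjusted p = 0.0158). Late embryogenesis abundant proteins, which protect dry cells, had 2 decreases of 26, led by LEA 46 (LOC104889201) from 10.4, 5.06 and 12.3 FPKM to 0.906, 0.358 and 0.739 FPKM (log2 fold change -2.56, SE 0.36, limma adjusted p = 0.0205).

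Other lists held few DEGs for their size or were small. The share called was 4.26% for ribosomal proteins and 2.44% for autophagy and senescence, below the 10.2% of all genes tested. It was 12.5% for histones, 16.7% for betalains, 13.6% for sucrose synthesis and cleavage and 11.6% for root markers. Among genes averaging 1 FPKM or more it was 15.7%. Cytosolic ribosomal proteins had 3 increased and 3 decreased of 141 (2.13% and 2.13%) and a median log2 fold change of 0.21, with 0 and 3 after scaling and 6 increases without CK_1 replicate 2. Histones, which rise in S phase, had 3 and 1 of 32 and a median log2 fold change of 0.00, with 5 increases without CK_1 replicate 2 or CK_7 replicate 1 and 1 without any 1 of the other libraries, and 3 decreases without CK_1 replicate 1, and their summed level overlapped, at 1159.5, 1707 and 492 FPKM on day 1 and 807, 1509 and 1377 FPKM on day 7. CK_1 replicate 2 was the highest of all 6 libraries for this sum. Autophagy and senescence genes had 1 decrease of 41, the autophagy-related protein 18a (LOC104898965), from 25.6, 36.4 and 26.6 FPKM to 5.29, 5.86 and 4.74 FPKM (log2 fold change -2.26, SE 0.18, limma adjusted p = 0.00615). Of 12 genes for betalains, the red and yellow pigments of beet, 2 increased, both annotated as 4,5-DOPA dioxygenase extradiol-like (LOC104890485, 1.65, and LOC104890487, 1.07 on the log2 scale). The sucrose synthesis and cleavage list had 2 and 1 of 22, and root markers 3 and 2 of 43, with 7 increases without CK_1 replicate 2, 6 without CK_7 replicate 1 and 5 without CK_7 replicate 2.

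The same days could be compared in the salted roots, which share no library with the controls but were harvested on the same days. The S_7 roots had also been under salt for longer than the S_1 roots. Age and length of salt exposure cannot be told apart there. In S_7 against S_1, 4.11% of 27398 genes increased and 2.66% decreased, that is 1127 and 730 genes (6.78% together), and 657 and 1085 after median ratio scaling. Of the 1876 control increases that could be tested there, 1485 (79.2%) were higher in S_7 than in S_1 and 436 were called, whereas 61.9% of all genes tested in both were higher. Of the 930 control decreases, 673 (72.4%) were lower in S_7, beside 38.1% of all genes, and 250 were called. In the control and salt comparisons 686 genes were called in the same direction and 80 in opposite directions. In the interaction test over all 12 libraries, 499 of 28320 genes (1.76%) had a limma adjusted p under 0.05, and 285 of these were among the 2808 control DEGs. The change was higher in the controls for 0.936% of all genes and lower for 0.826%. The number was 273 without CK_7 replicate 3, 281 without S_7 replicate 1, 289 without CK_1 replicate 1, 295 without S_7 replicate 3, 312 without CK_7 replicate 2 and 324 without S_7 replicate 2.

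The largest control decreases were mostly called in the salted roots as well. All 10 of the largest control decreases were lower in S_7 than in S_1, and 9 were DEGs there. Beta-D-xylosidase 1 fell from 370.2, 297 and 533 FPKM in S_1 to 23.7, 4.86 and 13.1 FPKM in S_7, and isocitrate lyase from 40.4, 47.5 and 35.2 FPKM to 2.41, 1.32 and 3.79 FPKM. Of these 10, the WAT1-related transporter (LOC104901778) alone had a significant interaction (limma adjusted p = 0.0332), with log2 fold changes of -5.04 without and -2.36 with salt. Of the 10 largest increases, 4 were higher and 6 lower in S_7 than in S_1, and 5 had a significant interaction. Peroxidase 20 read 21.6, 14.3 and 56.04 FPKM in S_1 and 4.65, 12.3 and 6.49 FPKM in S_7 (interaction limma adjusted p = 0.0044), and the GDSL gene LOC104894041 28.8, 25.7 and 83.8 FPKM and 15.6, 16.3 and 19.2 FPKM (interaction limma adjusted p = 0.0044). For both, every S_1 library stood above every CK_1 library. Cell division genes gave 12 increases and 0 decreases in the salted roots with a median log2 fold change of 0.61, secondary wall genes 1 and 4 with 0.19, and photosynthesis genes 0 and 13 with -0.84. In the interaction test 0 members of the cell division list and 0 of the photosynthesis list passed, and 5 of the secondary wall list. The transcription factor gene TGA2.1 (LOC104889231), of the salicylic acid response, read 46.1, 41.9 and 55.3 FPKM in CK_1 and 20.9, 21.7 and 22.3 FPKM in CK_7 but 9.82, 12.3 and 11.8 FPKM in S_1 and 28.8, 22.3 and 22.7 FPKM in S_7 (interaction limma adjusted p = 0.00322). The universal stress protein PHOS34 (LOC104891270) likewise read 335, 389 and 292 FPKM and 98.2, 74.1 and 87.7 FPKM without salt and 52.1, 56.9 and 61.5 FPKM and 105, 75.9 and 91.8 FPKM with it (interaction limma adjusted p = 0.00322). LHY, which fell in the controls, read 25.1, 9.5003 and 17.6 FPKM in S_1 and 34.2, 15.6 and 20.2 FPKM in S_7 (interaction limma adjusted p = 0.0268).

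**Figure D5:**
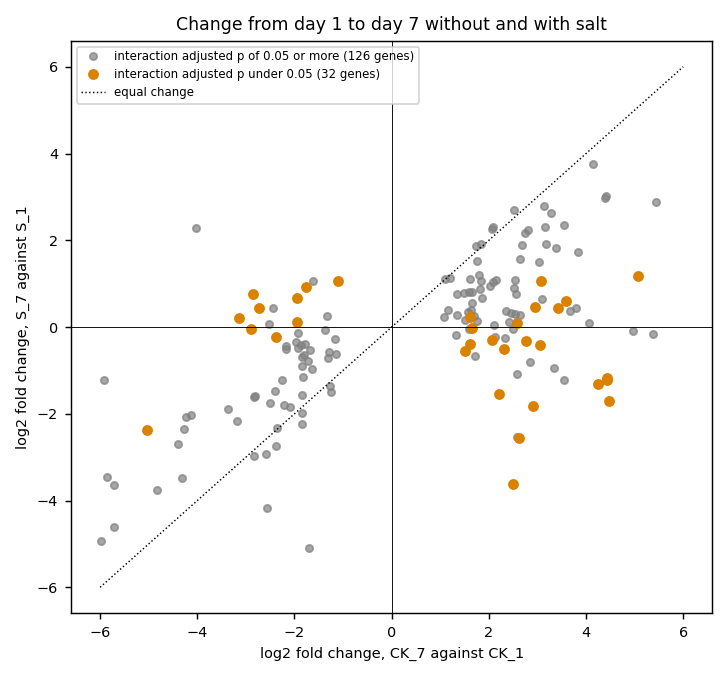
log2 fold change from day 1 to day 7 without salt (horizontal) against that with salt (vertical) for the 158 named genes above 0 in all 12 libraries. Orange points are the 32 genes with an interaction limma adjusted p under 0.05, grey points the other 126, and the dotted line marks equal change. Peroxidase 20 sits at the lower right, at 4.47 without and -1.71 with salt, and beta-D-xylosidase 1 at the lower left, at -5.99 and -4.94.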

How the data were processed

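RNA was sequenced from roots of 12 samples, 3 in each of CK_1, CK_7, S_1 and S_7, and the 6 CK libraries carry the report. The authors deposited 1 table of FPKM values per gene. The submitters' processing notes name Bowtie 0.12.2, HISAT2 2.0 and StringTie 1.3.0, and name a mouse build as the genome. The study speaks of a sugar beet genome, whose build is not given in the sources used here. FPKM holds no counts, so the number of fragments behind a value is unknown and no counting interval is given. The study gives reads per group, which were not used here.

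Values were taken as log2(FPKM + 1). Genes above 0 in at least 1 library of a comparison were fitted with limma 3.58.1 (R 4.3.3, empirical Bayes with trend), CK_7 against CK_1 over its 6 libraries, S_7 against S_1 over the other 6, and the day by salt interaction over all 12. The fits were tested on simulated data. P-values were two-sided and adjusted by Benjamini-Hochberg over all genes of a fit. The study calls the replicates biological, but the number of plants behind a library is not given, so p-values measure the spread between these samples. The main criteria, an unadjusted P under 0.05 with a log2 fold change of 1, follow the study.

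Named genes were the 10 largest increases and 10 largest decreases with an adjusted p under 0.05, a description, no overlap between days and no library at 0. From each list up to 4 called members with the largest change were added under the study's criteria. These members too had to show no overlap between days and no library at 0. Up to 3 members per list that were at 0 in a library were added. So were 5 genes with opposite change under salt and the smallest interaction p. The members, lists and terms were chosen with earlier results of these data known. Gene names and pathway terms come from the table. RefSeq (assembly EL10.2) was used only to see which genes neighbour each other, and 183 of 191 named genes matched. Alternatives were a smaller pseudocount, a minimum FPKM, median ratio scaling, adjusted p, a Ballgown-type linear model, a fit of all 12 libraries, a replicate block, leaving out genes with both a 0 and a high value, and leaving out each library.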

Additional observations from a re-analysis of the deposited data

Results flagged for a closer look

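The change from day 1 to day 7 differed between unsalted and salted roots for 40 of the 191 named genes, by the interaction test of limma (adjusted p under 0.05 over all genes), beside 499 of 28320 genes (1.76%) in all. The named genes were chosen for a large change in the controls, and 5 of them for their interaction, so the first share is partly set by that choice. The values here are differences of log2 fold changes, CK minus S, so a positive value means a larger rise or smaller fall without salt. No test for single outlying samples was made, as each group has 3.

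Among wall, surface and lignin genes the difference was 6.18 for peroxidase 20 (LOC104892966), 5.66 for peroxidase 11 (LOC104896291), 5.61 and 5.55 for the GDSL genes LOC104894041 and LOC104895639, and 2.07 for the GDSL gene LOC104909076. It was 5.18 for laccase-12 (LOC104905953) and 2.83 for laccase-3 (LOC104900211). Cytochrome P450 86B1 (LOC104902574) had 4.73, the fatty acyl-CoA reductases LOC104901603 and LOC104900337 had 2.99 and 2.01, and the lipid-transfer protein LOC104904284 had 3.89. The XTH gene LOC104889736 had 3.47, the caffeic acid 3-O-methyltransferase LOC104888149 had 2.48, the probable cinnamyl alcohol dehydrogenase 6 LOC104884022 had 2.47 and cinnamoyl-CoA reductase 1 (LOC104904880) had 2.00.

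Among transport, metabolism and regulatory genes with a higher change in the controls were the myb-like protein X gene LOC104895935 (6.11), HKT8-like LOC104903830 (3.76), HKT6 LOC104902377 (3.09), glutaredoxin-C6 LOC104886615 (2.98), the purple acid phosphatase LOC104888997 (2.38), NPF2.12 LOC104897989 (1.68) and the sucrose-phosphate synthase LOC104909043 (1.37). Lower in the controls were the changes of Mal d 1 LOC104888645 (-3.60), the TIP-type aquaporin LOC104892761 (-3.36), LHY LOC104901408 (-3.16), glutathione S-transferase U8 LOC104899212 (-2.85), WRKY 61 LOC104894101 (-2.69), the WAT1-related LOC104901778 (-2.68), PHOS34 LOC104891270 (-2.61), TGA2.1 LOC104889231 (-2.15), the ERD6-like LOC104899261 (-2.14) and the WRKY 42-like LOC104883380 (-2.05).

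For 8 genes with a library at 0, no difference is given and the value is the interaction adjusted p of limma. It was 1.43e-11 for ethylene-responsive transcription factor 3 (LOC104891730), 0.00533 and 0.0413 for the NRT2.5-like LOC104908398 and LOC104908396, 0.0125 for WIN1 (LOC104904567), 0.0134 for pectate lyase 5 (LOC104897228), 0.0177 for the class I heat shock protein LOC104896999, 0.0328 for the antiporter LOC104894068 and 0.0495 for the jasmonate-induced protein homolog LOC104887300. The assembly of transcripts behind entries at 0 in a whole group was not tested.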

How the results depend on the processing

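The 2808 control DEGs (1877 increases, 931 decreases) became 1544 (1064 and 480) with an adjusted p under 0.05, 4918 (3292 and 1626) with a pseudocount of 0.1, and 1615 (1042 and 573) with the Ballgown-type model, which was rewritten in R from its description. Median ratio scaling with an adjusted p under 0.05, chosen after seeing the data, gave 1622, of which 943 were increases. The 1857 DEGs in salted roots became 552, 3703 and 432 under the first 3 of these settings. Leaving out each library in turn gave 2509 to 3560 control DEGs, 1571 to 2424 increases and 847 to 1136 decreases, 1794 to 2102 DEGs in salted roots, and 273 to 565 genes with an interaction. The other settings kept these counts within 1.5 times, except the interaction with the replicate block, given with the pairing. None of the 191 named genes reversed under any setting. Genes chosen for no overlap between days could not reverse when a library was left out or the pseudocount changed, so this is no check of them. Low values, such as those under 1 FPKM, rest on an unknown number of fragments. With 3 libraries against 3, an exact permutation test of a single gene cannot go below 0.1.

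Replicate numbers were shared between groups, but same-numbered CK libraries deviated from their group means with correlations of 0.0394, 0.103 and 0.0305, not all above 0.1, so the numbers were not taken as pairs, and CK_1 replicate 3 correlated more with CK_7 replicate 1 (0.0334) than with its own number. With the replicate block there were 2857 control DEGs, 2 of them with an adjusted p under 0.05, 1763 DEGs in salted roots and 230 genes with an interaction in place of 499.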
